A study of Homo sapiens with 6 samples.

Results

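The matrix metalloproteinases and their relatives were read in RNA-seq counts of 6 libraries (3 of the group LINC00115 KD and 3 of the group WT) labelled as paclitaxel (PTX)-resistant MDA-MB-231 breast cancer stem-like cells (BCSCs). A member was any row of the count table whose symbol starts with Mmp, Timp or Adam and a digit, or with Adamts. This gave 67 of 22989 genes, namely 21 MMP, 4 TIMP, 21 ADAM, 16 ADAMTS and 5 ADAMTS-like genes. The line comes from a human triple-negative breast tumour, and its stem-like cells were sorted for aldehyde dehydrogenase (ALDH) activity. The KD cells carried a short hairpin RNA against LINC00115, a long non-coding RNA. By the labels, both groups shared the line, the PTX resistance and the cell type. The labels call the controls wild type where the study's text names a control shRNA. The labels number the KD libraries sh115-1 to sh115-3. No source states that the 3 libraries of a group came from separate cultures, so the p-values measure the spread between these libraries, which may be technical.

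MMPs are zinc-dependent endopeptidases that cut collagens, gelatin, proteoglycans and each other. Most are secreted as inactive proenzymes and some are held at the cell membrane. ADAMs are membrane-anchored relatives, of which several release the outer part of growth factors, cytokines and receptors from the cell surface, a step called shedding. ADAMTS enzymes are secreted, carry thrombospondin repeats and cut matrix proteins such as aggrecan and versican, and ADAMTS-like proteins resemble them without a protease domain. TIMPs are the tissue inhibitors of these enzymes. In breast tumours the families are known for remodelling of matrix during invasion.

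The libraries held between 36979221 and 38799331 counts. No library repeated another: the chi-square per degree of freedom between libraries of a group was 3.88 to 7.60. The labels name a human line, but the table lists its genes by mouse symbols. Of all 22989 symbols, 29 equal a human symbol as written, 4650 start with Gm and a digit and 1129 end in Rik, both forms of mouse gene names. The names thus point to a mouse annotation, against the human line of the labels and the hg38 build of the submitters' processing notes. The counts may therefore come from mouse cells, but no source used here states this. Of the 67 members, 62 equal a human gene symbol apart from case and 5 do not (Adam3, Adam4, Mmp1a, Mmp1b and Mmp23). Mmp1a and Mmp1b are the mouse counterparts of the human collagenase gene MMP1, and Mmp1b had 476 to 566 counts in the WT libraries. Symbols are therefore printed as the table gives them, and no genome positions are given for the counts. The table holds 0 rows named LINC00115, so the knockdown could not be checked and every direction rests on the labels. Among mesenchymal markers, Vim had 3418 and 3736 normalized CPM and Cd44 had 911 and 879 in the WT and KD libraries, while Cdh2 and Snai2 had at most 2 counts. Of 12 epithelial markers, Epcam had at most 5 counts in any library, but Krt8 had 472 and 752 normalized CPM and Krt18 129 and 236. The epithelial sum was 600 to 609 in the WT and 961 to 1011 in the KD libraries. Of the receptors, Esr1 (24 to 29 and 82 to 105 counts) was called higher, Erbb2 had 17.0 and 27.6 normalized CPM, and Pgr had at most 3 counts. Aldh1a1 had 8 to 17 counts in the WT libraries and 39 to 52 in the KD libraries, and Aldh1a3 at most 4. Lung epithelial genes differed between the groups as a list. Each of the 10 had its lowest KD value above its highest WT value, with a summed level of 1.62 to 1.85 normalized CPM in the WT libraries and 73.4 to 84.0 in the KD libraries, and Scgb1a1, Sftpc, Sftpb, Sftpa1, Sftpd and Scgb3a2 were at 0 counts in every WT library. Of 11 kidney epithelial genes, 7 were higher in the same way, and the sum of the 11 was 9.37 to 9.80 in the WT and 24.4 to 28.5 in the KD libraries. Cubn, most of the WT sum, went the other way. It had 8.12 to 8.36 normalized CPM in the WT and 5.86 to 6.49 in the KD libraries. Of all genes tested, 37.8% lay above every WT library.

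The comparison asked which proteases and inhibitors differed between LINC00115 KD and WT cells. Of the MMP genes, the gelatinase Mmp9, the MMP1 counterpart Mmp1b and the stromelysins Mmp3 and Mmp11 fell by more than 2-fold. The ADAMTS genes Adamts4, Adamts7, Adamts9 and Adamts10 fell as well, together with the weakly counted Mmp23. Adam8 and Adamtsl4 rose, as did 5 genes with few counts in the WT libraries, Timp3, Adam22, Adamts5, Mmp24 and Mmp2. Timp2, Mmp14, Adam9 and Adamts14, each well counted, differed by less than 1.1-fold. Genes were called at an adjusted p-value under 0.05 in edgeR's quasi-likelihood test with Benjamini-Hochberg adjustment and a fold change over 2. Of the 39 members with enough counts to be tested, 9 (23.1%) were called lower and 7 (17.9%) higher, beside 9.98% lower and 10.2% higher among all 13497 genes tested. At the adjusted p alone, 15 members were lower and 16 higher, beside 36.7% lower and 36.7% higher of all genes tested. All KD libraries lay below all WT libraries for 16 of the 39 members and above them for 15 (79.5% together), beside 37.8% below, 37.8% above and 75.6% together of all genes tested. The median log2 fold change was 0.09 for the tested members and -0.01 for all genes tested. A test of the members as a set was not made. Of the called members, 5 passed the count filter through 1 group alone: Mmp23 through WT, and Adam22, Adamts5, Mmp2 and Timp3 through KD. The filter itself thus favoured a difference in these 5, and their calls are not independent of it.

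Summed over its genes, the MMP family went from 858, 916 and 892 normalized CPM in the WT libraries to 487, 499 and 490 in the KD libraries. This was 55.3% of the WT mean, with no overlap between the groups. Of the difference, 397 normalized CPM, nearly all lay in Mmp3 and Mmp9, since the other MMP genes together had 250, 268 and 267 in the WT and 240, 250 and 241 in the KD libraries. The ADAMTS family went from 397 ± 13.2 (SD, n = 3) to 232 ± 1.75, or 58.6% of WT. The ADAMTS-like genes went the other way, from 50.9 ± 2.15 to 90.9 ± 2.24. The ADAM sums overlapped, with 664 ± 4.10 and 673 ± 6.09, and without Adam8 they were 631 ± 3.89 and 579 ± 5.66. The TIMP sum, which Timp2 dominates, was 798 ± 2.99 in the WT and 770 ± 6.89 in the KD libraries. These sums are descriptions and were not tested.

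Promoter sequence is shown for 1 called member of each family, the best counted among those with a RefSeq entry, because the study concerns HIF1 and the core letters of its response element could be searched there. RefSeq promoters (GRCh38.p14) were at hand for 36 members and for 8 of the 16 called ones. They belong to the human genes of the same name, while the table's symbols are those of mouse genes. Each line holds the 250 bases before the annotated start, 5′ to 3′ on the gene's strand. Capitals mark the HIF core letters ACGTG or GCGTG on either strand.
MMP11, chr22:23772599-23772848, plus strand: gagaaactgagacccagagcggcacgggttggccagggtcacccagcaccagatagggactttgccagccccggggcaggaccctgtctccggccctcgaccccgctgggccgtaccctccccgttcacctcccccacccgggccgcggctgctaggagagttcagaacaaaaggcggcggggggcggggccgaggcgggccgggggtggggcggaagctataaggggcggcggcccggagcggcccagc
ADAMTS7, chr15:78811465-78811714, minus strand: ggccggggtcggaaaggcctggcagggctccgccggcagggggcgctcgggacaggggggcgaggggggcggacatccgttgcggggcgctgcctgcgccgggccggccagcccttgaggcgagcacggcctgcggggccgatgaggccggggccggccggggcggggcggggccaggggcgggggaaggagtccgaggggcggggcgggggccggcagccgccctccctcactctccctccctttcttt
ADAMTSL4, chr1:150549158-150549407, plus strand: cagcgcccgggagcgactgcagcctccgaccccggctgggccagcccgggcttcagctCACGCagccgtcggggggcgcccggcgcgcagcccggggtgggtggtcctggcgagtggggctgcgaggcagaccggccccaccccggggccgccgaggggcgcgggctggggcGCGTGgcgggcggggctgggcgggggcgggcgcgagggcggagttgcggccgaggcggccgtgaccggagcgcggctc
ADAM8, chr10:133276869-133277118, minus strand: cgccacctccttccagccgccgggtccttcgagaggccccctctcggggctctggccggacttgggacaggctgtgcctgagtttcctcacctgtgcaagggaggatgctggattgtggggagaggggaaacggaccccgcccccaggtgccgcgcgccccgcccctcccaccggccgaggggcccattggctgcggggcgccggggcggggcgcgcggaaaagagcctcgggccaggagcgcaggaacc
TIMP3, chr22:32801455-32801704, plus strand: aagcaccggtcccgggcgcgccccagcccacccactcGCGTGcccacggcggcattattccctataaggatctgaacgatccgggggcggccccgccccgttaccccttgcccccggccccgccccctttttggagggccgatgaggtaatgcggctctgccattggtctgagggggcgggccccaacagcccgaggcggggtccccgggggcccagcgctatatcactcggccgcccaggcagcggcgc
The HIF core letters were found in 4 of the 9 promoter entries of called members (Adamts10 with 2 entries, Adamtsl4 and Timp3), beside 43.2% of all 35116 promoters of the same length. TIMP3 holds 1 match and ADAMTSL4 2, and MMP11, ADAMTS7, ADAM8, ADAM22 and MMP24 hold 0. The AP-1 letters TGAGTCA, searched on both strands, were in 0 of the 9 entries and in 4.20% of all promoters. The search for ACGTG also finds the palindrome CACGTG. A match is a description of letters only.

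Among the gelatinases, which cut denatured collagen and basement membrane, Mmp9 had the lowest adjusted p of the 39 tested members. It had 149, 147 and 149 normalized CPM in the WT libraries and 25.3, 26.6 and 24.1 in the KD libraries. Every KD library was therefore far below every WT library, with a log2 fold change of -2.55 (standard error, SE, 0.05, adjusted p = 8.23e-31, edgeR), a level of 17.0% of WT. The other gelatinase, Mmp2, had 0, 1 and 23 counts in the WT libraries and 22, 29 and 20 in the KD libraries. WT replicate 3 thus lay among the KD libraries, and the call of Mmp2 as higher (log2 fold change 1.55, adjusted p = 0.0467, edgeR) was lost in 7 of 11 alternative fits, while without WT replicate 3 the log2 fold change was 5.25. The same WT library held 192 counts of Krt14 and 92 of Krt5, against 7 and 30 and against 0 and 0 in the other WT libraries; their part in the value of Mmp2 was not tested.

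The collagenases open the triple helix of fibrillar collagen. Mmp1b is grouped with them by name, and whether its product cuts collagen cannot be told from RNA counts. Mmp1b fell from 535, 476 and 566 counts to 73, 116 and 88, a log2 fold change of -2.51 (SE 0.15, adjusted p = 2.37e-16, edgeR). Its paralog Mmp1a had 53 to 70 counts in the WT and 25 to 55 in the KD libraries, which overlap (log2 fold change -0.62, adjusted p = 0.116, edgeR). How the authors' counting split reads between these paralogs is not known here. Mmp13, a collagenase, did not follow Mmp1b. It had 9.85, 8.16 and 7.60 in the WT and 10.5, 10.4 and 10.9 in the KD libraries, an increase of 1.24-fold that passed the adjusted p (0.019) but not the fold threshold. Mmp8, the neutrophil collagenase, had 0 counts in every WT library and 6, 6 and 3 in the KD libraries, too few to be tested.

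The stromelysins cut proteoglycans and fibronectin and activate other MMPs, and all 3 were lower in every KD library, as were 37.8% of all genes tested. Mmp3 had 458, 501 and 476 normalized CPM in the WT and 222, 222 and 225 in the KD libraries, so that the KD libraries lay close together at 46.6% of WT (log2 fold change -1.10, standard error 0.04, adjusted p = 1.58e-24). Mmp11, which differs from most secreted MMPs in being activated inside the cell by furin, fell from 31.2, 31.1 and 29.5 to 10.3, 11.1 and 10.3, a log2 fold change of -1.54 (SE 0.08). Mmp10 had 4.51, 4.05 and 3.04 in the WT and 2.82, 1.88 and 1.11 in the KD libraries. Its log2 fold change of -0.9975 (adjusted p = 0.00111) lay just short of the fold threshold, and it was called lower in 4 of 12 alternative fits, for example at -1.37 without KD replicate 1.

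Of the membrane-bound MMPs, Mmp14, the main activator of pro-MMP2 at the cell surface, was well counted and nearly level. It had 159, 182 and 180 normalized CPM in the WT and 182, 192 and 184 in the KD libraries, ranges that overlap, with a log2 fold change of 0.10 and a 95% interval of 0.01 to 0.18. Mmp24, another transmembrane MMP, rose from 23, 10 and 17 counts to 98, 103 and 169, a log2 fold change of 2.88 (SE 0.35, adjusted p = 6.92e-09). Mmp23, a membrane-linked MMP without a hemopexin domain, fell from 58, 30 and 53 counts to 6, 4 and 10, a log2 fold change of -2.80 (SE 0.53). Mmp15 had at most 27 counts and overlapped between the groups.

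Among the other secreted MMPs, Mmp28, or epilysin, was higher in every KD library (3.66, 2.73 and 3.84 against 6.15, 6.10 and 4.40 normalized CPM) without reaching a fold change of 2 (log2 fold change 0.70, adjusted p = 0.00133). Mmp19 was slightly lower, at 87.0% of WT. Mmp12, the macrophage elastase, had 3 to 23 counts per library and a log2 fold change of -0.13 (adjusted p = 0.86). Mmp7 had 0 counts in all 6 libraries, which allows up to 3 counts in each.

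Of the 9 tested ADAMTS genes, 4 (44.4%) were called lower and 1 (11.1%) higher, beside 9.98% lower and 10.2% higher of all genes tested. The aggrecanases among them went both ways. Adamts4, an aggrecanase, fell from 77.9, 65.8 and 64.7 to 20.2, 18.7 and 19.1 normalized CPM, a log2 fold change of -1.84 (SE 0.07, adjusted p = 1.42e-22, edgeR). Adamts9, which cuts aggrecan and versican, fell from 39.6, 38.2 and 38.5 to 9.54, 9.56 and 8.16, a log2 fold change of -2.09. Some other genes of this substrate class went the other way. Adamts1, which cuts versican and aggrecan too, had 56.0, 55.4 and 51.8 in the WT and 90.0, 85.3 and 85.7 in the KD libraries, higher in each but short of the fold threshold (log2 fold change 0.68, adjusted p = 2.66e-14). Adamts5, the other major aggrecanase, had 4, 1 and 0 counts in the WT and 32, 27 and 33 in the KD libraries (log2 fold change 4.10, standard error 0.72, adjusted p = 5.59e-06, edgeR). Adamts5 passed the count filter through KD alone, so its call is not independent of the filter. Adamts8 was lower in every KD library, at 61.9% of WT, and was not called.

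Outside the aggrecanases, Adamts7, known to cut cartilage oligomeric matrix protein, fell from 168, 163 and 154 to 49.3, 55.0 and 54.4 normalized CPM, a log2 fold change of -1.61 (SE 0.05, adjusted p = 1.61e-25, edgeR). Adamts10, which binds fibrillin microfibrils, fell from 16.2, 18.3 and 17.9 to 5.33, 5.09 and 5.32, a log2 fold change of -1.74. Its near relative Adamts6 had 7.57 to 8.33 in the WT and 8.76 to 11.1 in the KD libraries, higher in each and not called. Adamts14, which trims the amino-terminal propeptide of procollagen, differed little (40.5, 43.4 and 45.4 against 44.2, 46.9 and 46.2, 95% interval of the log2 fold change -0.03 to 0.20). Adamts12 had 10, 24 and 8 counts in the WT and 1, 0 and 4 in the KD libraries and fell under the count filter.

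The 3 tested ADAMTS-like genes were higher in every KD library, as were 37.8% of all genes tested. Adamtsl4, a fibrillin-associated protein, rose from 20.3, 16.7 and 14.4 to 40.3, 39.5 and 42.0 normalized CPM, a log2 fold change of 1.25 (SE 0.08, adjusted p = 2.91e-15, edgeR). Adamtsl3 and Adamtsl5 passed the adjusted p with log2 fold changes of 0.80 and 0.48 but not the fold threshold. Adamtsl1 and Adamtsl2 had at most 11 counts in any library.

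The sheddases Adam10 and Adam17 were both lower by about the same amount. Adam10, which sheds Notch and cadherins, had 196, 200 and 193 normalized CPM in the WT and 141, 144 and 149 in the KD libraries, or 73.7% of WT (adjusted p = 1.45e-12). Adam17, the TNF-converting enzyme, had 183, 177 and 180 in the WT and 130, 133 and 133 in the KD libraries, or 73.3% of WT (adjusted p = 9.97e-13). The groups did not overlap for either gene, and neither reached the fold threshold.

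Adam8, an ADAM of leukocytes and of invasive tumour cells, rose from 33.5, 34.2 and 31.5 to 94.1, 93.9 and 94.8 normalized CPM. The KD libraries lay within 1 CPM of each other, with a log2 fold change of 1.51 (SE 0.05, adjusted p = 1.44e-23, edgeR). Of 10 neutrophil marker genes, 7 had every KD library above every WT library, beside 37.8% of all genes tested. Of the 7, Mpo, Cxcr2, Retnlg and Csf3r were not tested. They had 0 counts in the WT and at most 8 in the KD libraries. The sum of the 10 was 32.4 to 34.9 normalized CPM in the WT and 94.9 to 106 in the KD libraries, nearly all of it S100a8. Ltf (8 to 14 counts in the WT and 174 to 204 in the KD libraries) and S100a9 (0 to 2 and 48 to 68) rose, while Camp and Elane had at most 4 in any library. Of 11 macrophage genes, Lyz2 (5 to 52 and 247 to 250 counts) and Cd14 (15.7 and 50.9 normalized CPM) rose, Mrc1 fell (7.39 and 1.17) and Csf1r had at most 3 counts, with a sum of 61.7 to 74.3 normalized CPM in the WT and 104 to 108 in the KD libraries. Ptprc of leukocytes had at most 13 counts. The part of these cells in the value of Adam8 was not tested. Adam15 and Adam19 were higher in every KD library by 1.25-fold and 1.36-fold, and Adam9 was nearly level (109 ± 1.85 and 113 ± 1.02, SD, n = 3, 95% interval of the log2 fold change -0.03 to 0.13).

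Adam22, a catalytically inactive ADAM of the nervous system that binds LGI proteins, had 1, 0 and 0 counts in the WT libraries and 126, 98 and 129 in the KD libraries. The ratio of the summed counts was 353 with a 95% exact interval of 62.9 to 13962, which covers counting error only. Of the other ADAMs, Adam11 and Adam1a overlapped between the groups and 12 were under the count filter, among them Adam33, an ADAM of smooth muscle, with 2, 0 and 0 counts in the WT and 8, 9 and 17 in the KD libraries. Fewer cells of a kind and less RNA per cell cannot be told apart in these bulk libraries.

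The inhibitors did not move as a group. Timp2 had 716, 718 and 716 normalized CPM in the WT and 702, 685 and 698 in the KD libraries, lower in each by a small margin (log2 fold change -0.04, 95% interval -0.10 to 0.01, adjusted p = 0.185, edgeR). Timp1 had 78.3, 81.4 and 82.6 in the WT and 68.9, 71.7 and 70.9 in the KD libraries, or 87.3% of WT (adjusted p = 0.000402), and was not called. Timp3, the inhibitor that binds to the matrix and also inhibits ADAM17 and aggrecanases, rose from 1, 7 and 9 counts to 135, 188 and 206, which is 0.15 ± 0.11 and 4.68 ± 1.04 normalized CPM (SD, n = 3). Its log2 fold change was 4.93 (SE 0.38, adjusted p = 1.32e-13). Timp4 had 1 count in a single library.

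Timp3, Adam22, Adamts5 and Mmp24 had at most 23 counts in any WT library and at least 27 in every KD library. The 10 lung markers and 7 of the 11 kidney markers given above were higher in every KD library, beside 37.8% of all genes tested. The kidney marker Cubn was lower. Of the endothelial genes, Cdh5 had 5 to 14 counts in the WT and 2136 to 2243 in the KD libraries, and Cldn5 had 0 and 9 to 18. Tie1 was called lower (18 to 24 and 3 to 13 counts) but passed the count filter through WT alone, so its call is not independent of the filter. Vwf overlapped (11 to 20 and 10 to 19). Pecam1, Kdr, Emcn and Tek had at most 19. Among fibroblast genes, Pdgfra fell (177 and 74.5 normalized CPM), Acta2 had 2 to 7 and 14 to 27 counts, and Thy1 and Lum at most 2. The part of other cells in these 4 members was not tested.

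Genes that act with the proteases were read from 5 lists. Of 15 listed genes in the table that activate, bind or inhibit MMPs outside the TIMPs, 11 were tested, 1 was called lower and 1 higher (median log2 fold change -0.13). These calls were 18.2% of the 11, beside 20.2% of all genes tested. Bsg, also called EMMPRIN because it induces MMPs in stromal cells, fell from 936 to 416 normalized CPM (log2 fold change -1.17, standard error 0.03, adjusted p = 1.44e-25, edgeR). Thbs2, a matrix protein that promotes MMP2 uptake, rose from 0.309 to 0.940. It had 8, 13 and 14 counts in the WT libraries and passed the count filter through KD alone. The urokinase gene Plau (log2 fold change -0.60) was lower and its receptor Plaur (0.52) higher at an adjusted p under 0.05, neither past the fold threshold. Furin, which activates MT-MMPs and ADAMs, differed by -0.15, and Reck, a membrane inhibitor of MMPs, by -0.35 (adjusted p = 0.0586).

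All 7 tested partners of ADAM10 and ADAM17 differed at an adjusted p under 0.05 (edgeR), 2 lower and 5 higher, each by less than the fold threshold; of all genes tested, 73.4% passed that adjusted p. Tspan14, a tetraspanin that escorts ADAM10, had the highest log2 fold change of 0.70, and Frmd8, which stabilizes the iRhom and ADAM17 complex, the lowest of -0.46. The iRhoms themselves went opposite ways, with 0.35 for Rhbdf1 and -0.23 for Rhbdf2.

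Of 28 membrane proteins that ADAM10 or ADAM17 can shed, 24 were tested, 3 were called lower and 2 higher (median log2 fold change 0.24). These calls were 20.8% of the 24, beside 20.2% of all genes tested. The EGF receptor ligands differed among themselves. Tgfa fell from 126 to 32.8 normalized CPM (log2 fold change -1.95, standard error 0.05, adjusted p = 4.94e-27, edgeR) and Btc from 7.83 to 2.86, while Areg and Hbegf were higher by 0.42 and 0.39 without being called. Tnf fell (-1.59), but not past the threshold without WT replicate 2 (adjusted p = 0.0558, edgeR). Tnf had 18, 15 and 5 counts in the KD libraries and passed the count filter through WT alone. Icam1 and Cdh1 rose by 2.83 and 3.71 on the log2 scale from low levels of 0.963 and 0.0530 normalized CPM. Cdh1 had 2, 1 and 3 counts in the WT libraries and passed the count filter through the KD libraries alone. The filter thus favoured a difference in Cdh1, and its call is not independent of it.

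Of 15 matrix substrates of ADAMTS enzymes in the table, 6 were tested and 3 (50%) were called, beside 20.2% of all genes tested. The small proteoglycan Dcn fell (log2 fold change -1.28), and Bgn and Fbn1 rose (3.39 and 2.94) from under 1 normalized CPM, Bgn with 2, 0 and 7 counts in the WT libraries and past the count filter through KD alone, whereas Vcan had 0.459 and 0.761 normalized CPM and was not called. Among 14 transcription factors known to act on MMP promoters, 1 was called (7.14%, beside 20.2% of all genes tested). This was Jund, which rose from 155 to 318 normalized CPM (log2 fold change 1.04, standard error 0.04, adjusted p = 9.75e-22, edgeR). Junb (-0.53), Fosb (-0.84), Etv4 (-0.52) and Etv5 (-0.72) were lower without being called, and Fosl1 differed by 0.06 (adjusted p = 0.0845). Over the 62 tested genes of the 5 lists, 5 were called lower and 6 higher, 17.7% beside 20.2% of all genes tested. With at least 10 counts required in every library, 3 were called higher (Fbn1, Icam1 and Jund).

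Of the 28 members that were not tested, 12 had at most 3 counts in every library. The others lay between 4 and 24 counts at their highest. At this depth a difference in these 28 genes was mostly not detectable.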

How the data were processed

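RNA-seq read counts of 3 LINC00115 KD and 3 WT libraries were used. The authors deposited 1 table of whole-number counts per gene without normalization, made from adapter-trimmed reads mapped with HISAT2. The study's methods name hg19, and the submitters' processing notes name hg38, HISAT2, featureCounts and DESeq2. Which annotation was counted, and whether by strand, is not given in the sources used here, so overlapping genes cannot be told apart. Columns were matched to samples by the description in the labels.

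All genes entered the fit in edgeR 4.0.16 (R 4.3.3): filterByExpr (minimum count 10, minimum total 15), TMM scaling, quasi-likelihood test with the group only and Benjamini-Hochberg adjustment over 13497 genes. A call needed an adjusted p under 0.05 and more than a 2-fold difference, the thresholds of the study's methods. Normalized CPM use TMM-scaled totals, the standard error (SE) of each estimate was its absolute value over the root of the F statistic, and 95% intervals are 1.96 standard errors. Intervals cover the spread between libraries. The code was tested on simulated data. The members and lists were chosen with earlier results of these data known. Named were all called members, all Timp genes, the 3 best counted members of each other family and the called partner genes, and members and partners named beyond this were chosen after their values were seen. Genes not reported here were left out of the partner lists. Alternatives were DESeq2 1.42.0 and its size factors, library size only, 2 other count filters, each library left out, the replicate number as a block and no fold threshold.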

Additional observations from a re-analysis of the deposited data

How the results depend on the processing

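Of 461 alternative values of the 39 tested members, 447 kept the direction and the side of the thresholds. Without a fold threshold, 15 members were lower and 16 higher, and 4960 and 4952 of all genes, with 21 lower and 28 higher partner genes. With at least 10 counts in every sample, 3 members (Adam8, Adamtsl4 and Mmp24), 903 of all genes and 3 partner genes were called higher. With each replicate left out, 9 to 11 members were called lower and 6 to 7 higher, 1257 to 1392 and 1405 to 1488 of all genes, and 4 to 5 and 6 to 7 partner genes. The same 9 lower members remained in all fits except that with at least 10 counts in every sample, which did not test Mmp23. Mmp12, with few counts, changed sign to 0.28, 0.32 and 0.08 without KD replicate 1, WT replicate 1 and WT replicate 3, in a range of -0.61 to 0.32 over the fits without 1 library. Mmp2 lost its call with library size only (adjusted p = 0.0506), with DESeq2's Wald test (adjusted p = 0.382) and without each KD replicate, WT replicate 1 or WT replicate 2 (adjusted p 0.0735 to 0.229, edgeR). Adamts12 was called lower without each KD replicate, without WT replicate 3 and with no count filter, which also called Adam33 and Mmp8 higher. Mmp10 was called lower with library size only, with the replicate block and without KD replicate 1 or WT replicate 3. The replicate numbers did not pair the samples, since the correlations of the same-numbered samples' deviations were 0.04, -0.01 and -0.02. With the replicate number as a block, 10 members were called lower and 7 higher. Depth limits the 28 members under the count filter, and the kinds of replicate are not known.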
